A study of Mus musculus with 10 samples.

Results

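The 59 genes described here make up the Wnt and beta-catenin pathway: 9 Wnt ligands, 2 ligand-processing proteins, 3 R-spondins, 4 secreted antagonists, 12 receptors and coreceptors, 3 dishevelled proteins, 10 proteins of the destruction complex with its kinases, 8 nuclear factors, 4 Groucho corepressors and 4 feedback inhibitors. They were taken by gene symbol from a list, with no cutoff on a measured value, and all 59 were found among the 18444 genes of the table. Of these, 58 had a mean of at least 10 normalized read counts over the libraries and were tested among 17020 genes. Dkk1 fell below that minimum.

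Whole brains were taken at postnatal day 3 from male C57BL/6N mice, and messenger RNA was sequenced with a stranded kit. The 5 Arid1b+/- mice (HT) carried 1 copy of a germline allele, made with a Cas9 nickase at exon 5 of Arid1b, that truncates the protein in every cell that makes it. The 5 wild-type mice (WT) were of the same strain, age and sex, and no treatment is given for either group. ARID1B is a DNA-binding subunit of the BAF chromatin remodeling complex. The study followed beta-catenin protein and its phosphorylation in adult Arid1b+/- mice that had been given vehicle or fluoxetine early after birth. It reported no change in the phosphorylation. The comparison below asks a separate question, whether the messenger RNAs of the pathway differed between the genotypes at postnatal day 3.

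A Wnt ligand is lipidated by the acyltransferase Porcn, carried to the cell surface by Wls and bound by a Frizzled receptor together with Lrp5 or Lrp6. Dishevelled proteins are then recruited, and the destruction complex of Axin, Apc, Gsk3 and casein kinase 1 stops marking beta-catenin (Ctnnb1) for degradation. Beta-catenin enters the nucleus and binds Tcf and Lef factors, which otherwise hold target genes down with Groucho (Tle) corepressors. In the developing brain the pathway is known for patterning the midbrain and dorsal forebrain, for progenitor division, for blood vessel growth and for the thalamus, where Tcf7l2 is a well-known factor.

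Tcf and Lef proteins bind the core words CTTTGA and CTTTGT, and several members are themselves known targets of the pathway. Promoter windows of 250 bases upstream of a transcription start (RefSeq, GRCm38.p6) were matched for 40 of the 59 members, which had 59 windows between them. At least 1 of the words, on either strand, stood in 15 of these 59 windows (25.4%), against 9075 of 32851 windows of all genes (27.6%). The 3 windows below belong to the target genes Axin2 and Lef1 and to Tcf7l2, the Tcf factor with the highest level here. These genes are shown because the levels of Axin2 and Lef1 are read below as pathway targets and Tcf7l2 as its leading Tcf factor. For Lef1 and Tcf7l2 the window shown is the only window of the gene that held a searched word. Each is written 5′ to 3′ on the gene's strand, which is the plus strand for all 3, in lower case with the searched words in capitals (TCAAAG and ACAAAG are the reverse-strand forms).
Axin2, chr11:108920099-108920348: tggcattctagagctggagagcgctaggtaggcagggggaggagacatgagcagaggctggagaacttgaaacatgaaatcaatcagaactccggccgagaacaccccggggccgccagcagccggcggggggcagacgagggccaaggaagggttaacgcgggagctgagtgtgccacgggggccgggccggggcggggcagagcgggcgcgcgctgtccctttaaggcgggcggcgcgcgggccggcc
Lef1, chr3:131156044-131156293: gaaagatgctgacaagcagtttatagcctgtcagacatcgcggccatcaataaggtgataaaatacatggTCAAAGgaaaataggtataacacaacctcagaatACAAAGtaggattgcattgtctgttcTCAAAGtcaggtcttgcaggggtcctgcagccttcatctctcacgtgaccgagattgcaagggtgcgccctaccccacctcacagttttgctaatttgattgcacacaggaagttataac
Tcf7l2, chr19:55895071-55895320: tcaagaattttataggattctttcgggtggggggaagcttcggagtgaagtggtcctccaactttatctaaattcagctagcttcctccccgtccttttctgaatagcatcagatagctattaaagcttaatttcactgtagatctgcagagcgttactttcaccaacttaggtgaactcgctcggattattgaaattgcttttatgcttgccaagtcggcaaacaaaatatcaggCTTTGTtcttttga
The Axin2 window held neither word. The Lef1 window, 1 of 4 listed for that gene, held 3 on the reverse strand, at 180, 146 and 120 bases upstream of the start. The Tcf7l2 window, 1 of 2, held 1 on the forward strand, at 14 bases upstream. Both belong to starts inside the gene. The other 3 windows of Lef1 held 0, and the one at chr3:131112541-131112790 also lies inside the gene. The other window of Tcf7l2, at the start of the gene, held 0 as well. A match of this kind describes the letters only, and binding was not measured.

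Values are normalized read counts, scaled by the authors with DESeq2 size factors so that libraries can be compared. Their totals per library lay between 27243506 and 29032442, and the number of reads behind them is unknown. Arid1b itself averaged 2101 ± 343 over the HT libraries, which was 63.0% of the 3335 ± 203 over the WT libraries (SD), and the groups did not overlap (exact permutation test, two-sided, p = 0.00794, the smallest that 5 against 5 libraries allow). Its adjusted p in limma was 0.390, and 0.000252 without HT 4. Neuron markers were high in every library, with a summed level of 159599 to 179916, as a brain label requires, and no marker of the 12 cell type and region lists was at 0 in any library. Library HT 4 stood apart from the other 9: long transcripts were low and short transcripts high in it. Of all 17020 genes, 52.2% lay outside the range of the other 9 libraries in HT 4. Results are therefore given with and without it. The exact p beside a fold change is from a two-sided permutation test of the libraries, while calls at an unadjusted or adjusted p are those of limma.

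No member differed between the genotypes after correction, while 2 receptor and scaffold genes, Lrp5 and Axin1, were lower in HT at an unadjusted p under 0.05. With limma and Benjamini-Hochberg adjustment over 17020 genes, 0 of 58 members had an adjusted p under 0.05, and 0% of all genes did. The smallest adjusted p of any member under any alternative setting was 0.446. The 2 members at an unadjusted p under 0.05 make up 3.45% of 58, and 3.41% of all genes passed the same threshold. Both were lower in HT, as were 1.93% of all genes at that threshold. No member had groups that did not overlap, against 0.629% of all genes. The median log2 fold change (HT against WT) was -0.018 over the members, of which 19 were higher and 39 lower in HT, and -0.0074 over all genes, of which 46.4% were higher. Most differences were small and bounded: the 95% interval lay within 1.2-fold in either direction for 36 of 58 members, within 1.5-fold for 54 and within 2-fold for 57. Over all 17020 genes, 7853 intervals lay within 1.2-fold.

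**Figure D1:**
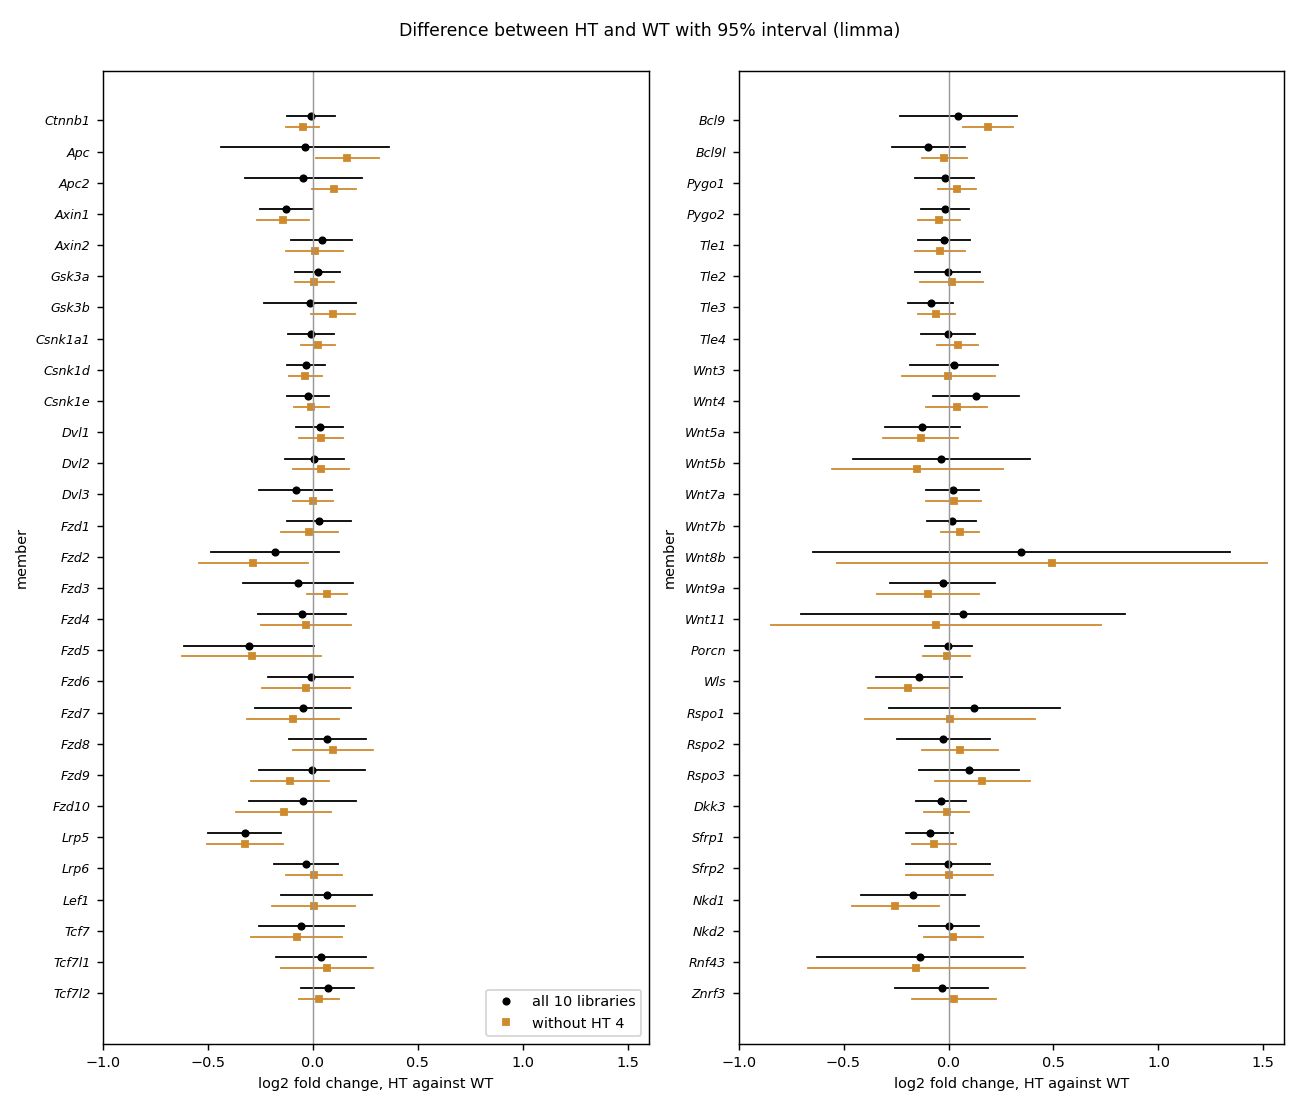
Log2 fold change of the 58 tested members, HT against WT, on the x axis, with points for the limma estimate and bars for its 95% interval, from all 10 libraries (black circles) and without HT 4 (orange squares). Lrp5, at -0.32, has an interval that stays below 0 in both fits, while the intervals of Apc and Bcl9 are wide with HT 4 and narrow without it.

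The plot of fold changes also shows how much 1 library could move a member. Without HT 4, 7 of 58 members (12.1%) had an unadjusted p under 0.05, against 8.40% of all genes, and again none passed after adjustment. The 7 were Lrp5, Axin1, Fzd2, Wls and Nkd1, which were lower in HT, and Apc and Bcl9, which were higher. The groups then did not overlap for 2 members, Axin1 and Wnt7b, against 2.96% of all genes. The median log2 fold change of the members without HT 4 was -0.00060, with 28 higher and 30 lower, and 15 members changed sign.

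Levels differed between members far more than between genotypes. Per kilobase of the longest annotated transcript, Ctnnb1 was highest at 5605 ± 310.4 normalized read counts (SD over 10 libraries), and Wnt8b and Dkk1 were lowest at 3.02 ± 1.81 and 2.97 ± 2.12. The intracellular machinery, from beta-catenin through the kinases, lay mostly above the receptors.

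**Figure D2:**
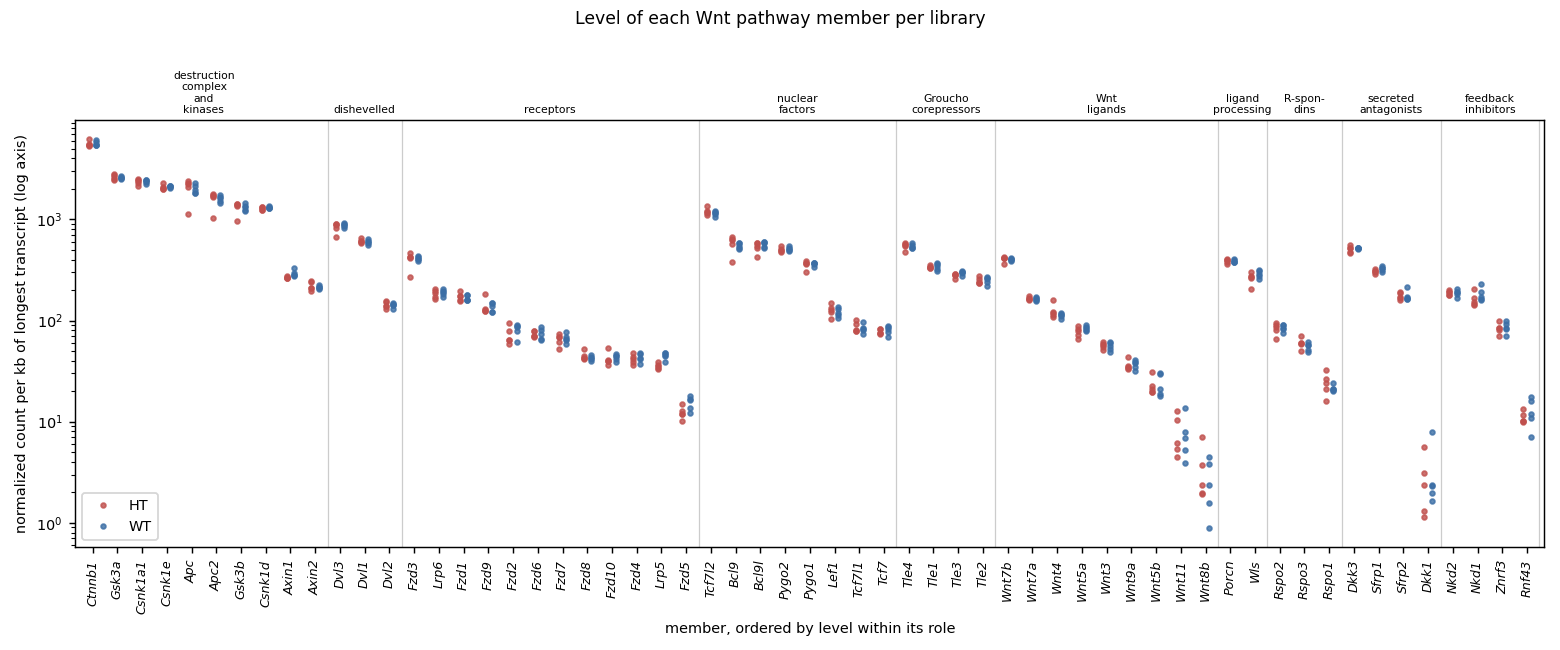
Level of each of the 59 members in every library, as normalized read counts per kilobase of the longest transcript on a log axis, grouped by role and ordered by level within it; red points are HT and blue points WT. The 2 colors lie over each other for nearly every member, and the separated red points at Apc, Apc2, Gsk3b, Fzd3 and Bcl9 are library HT 4.

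Among the Wnt ligands, Wnt7b led. It is a canonical ligand of cortical neurons and, with Wnt7a, a signal for brain vessel growth. Per kilobase it made up 45.1% ± 3.10 of the summed level of the 9 ligands in HT and 45.2% ± 0.546 in WT (SD, n = 5), Wnt7a 18.4% ± 0.606 and 18.4% ± 0.451, and Wnt4 13.8% ± 2.09 and 12.7% ± 0.566. The normalized read counts of Wnt7b were 1400.5, 1414, 1399, 1231 and 1459 in HT 1 to HT 5 and 1373, 1396, 1358, 1371 and 1324 in WT 1 to WT 5. HT 4 was the lowest of the 10 libraries, the other 4 HT libraries were all above the 5 WT libraries, and the log2 fold change was 0.015 ± 0.054 (SE) with all libraries and 0.056 without HT 4 (exact p = 0.0159), where limma gave an unadjusted p above the threshold.

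Wnt5a, which acts mainly through the branches that do not use beta-catenin, had the smallest limma p of the ligands. Its counts were 622, 502, 576, 554 and 464 in HT 1 to HT 5 and 595, 609.7, 629, 565 and 553 in WT 1 to WT 5, so the groups overlapped, with a log2 fold change of -0.12 ± 0.082 (exact p = 0.198). The other ligands were Wnt3, Wnt4, Wnt5b, Wnt7a, Wnt8b, Wnt9a and Wnt11, with log2 fold changes from -0.034 for Wnt5b to 0.35 for Wnt8b and no exact p under 0.238. Wnt8b, a ligand of the cortical hem and hippocampus, was near the minimum level at 6.43 to 23.9 in the HT libraries and 3.02 to 15.2 in the WT libraries. Its mean of 10.2 passed the minimum of 10 only through the HT libraries, which averaged 11.5 against 8.91 in WT. The interval of -0.65 to 1.34 for Wnt8b takes in both no change and a 2-fold increase. The library with the most Wnt8b, HT 1, also had the highest summed level of 7 hippocampus markers, 13477 against 8589 to 12446 in the others, and their part in the Wnt8b values was not tested.

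The ligand-processing genes did not differ after adjustment. Porcn, the acyltransferase, was level across the libraries at 955 to 1074 in the HT libraries and 983 to 1069 in the WT libraries, with a log2 fold change of -0.0018 (95% interval -0.11 to 0.11). Wls, the ligand carrier, had 953, 981, 947, 1075 and 736 in HT 1 to HT 5 and 1020.0, 1132, 981, 1107 and 908 in WT 1 to WT 5. HT 5 was the lowest of all and HT 4 the highest HT library, and the difference was -0.14 ± 0.095 on the log2 scale (exact p = 0.238), or -0.19 without HT 4 (exact p = 0.111).

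R-spondins prolong Wnt signals by removing the ligases Rnf43 and Znrf3 from the cell surface. Rspo2 was the highest of the 3 per kilobase, at 83.9 ± 8.34, followed by Rspo3 at 57.4 ± 6.40 and Rspo1 at 22.7 ± 4.35. Rspo3 had the smallest limma p of these, with 181, 183, 216, 153 and 184 in HT 1 to HT 5 and 151, 178, 157, 178 and 191 in WT 1 to WT 5 and a log2 fold change of 0.099 ± 0.11 (exact p = 0.389). Rspo2 ranged over 221 to 313 in the HT libraries and 249.9 to 304 in the WT libraries, and the lowest value was in HT 4. For Rspo1 the HT libraries (29.5 to 59.2) spread around the narrow WT range (37.0 to 43.8).

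The secreted antagonists were all within the spread of the libraries. Dkk3, a Dickkopf relative, was highest, at 1575 to 1880.3 in the HT libraries and 1705 to 1769 in the WT libraries. Sfrp1 and Sfrp2 bind Wnt ligands outside the cell. Sfrp1 was at 1397, 1318, 1352, 1259 and 1349 in HT 1 to HT 5 and 1445, 1373, 1456, 1499 and 1332 in WT 1 to WT 5, with HT libraries mostly at the lower end of the WT range and a log2 fold change of -0.090 ± 0.051 (exact p = 0.0635). Sfrp2 did not move as a group, with a fold change of -0.0033, and WT 3 stood above the rest at 433. Dkk1, the classical inhibitor of Lrp5 and Lrp6, was at 7.61, 13.6, 3.18, 2.76 and 5.79 in HT 1 to HT 5 and 4.78, 5.63, 19.0, 5.68 and 4.00 in WT 1 to WT 5, too low to test.

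Lrp5, the coreceptor best known for bone mass and for retinal and brain vessels, had the smallest limma p of the members. Its normalized read counts (ENSMUSG00000024913, chr19:3584828-3686564, minus strand, GRCm38) were 349, 303, 327, 317 and 294 in HT 1 to HT 5 and 404, 426, 394, 425 and 344 in WT 1 to WT 5. All HT libraries lay below 4 of the 5 WT libraries, and only HT 1 lay above WT 5. The means were 318 ± 21.2 in HT and 399 ± 33.4 in WT (SD, n = 5), so HT was at 79.8% of WT. The log2 fold change was -0.32 ± 0.081 (limma, unadjusted p = 0.00150, adjusted p = 1.00), the exact permutation test gave p = 0.0159 and leaving out HT 4 left the value at -0.32. Over every leave-one-out fit it stayed between -0.38 and -0.30.

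The paralog Lrp6 was at a higher level and did not follow Lrp5. Per kilobase Lrp6 stood at 187 ± 14.4 and Lrp5 at 40.3 ± 5.63, and Lrp5 made up 16.3% ± 1.64 of the 2 coreceptors in HT and 19.2% ± 1.91 in WT. Lrp6 counts were 1544 to 1927 in the HT libraries and 1616 to 1917 in the WT libraries, with a log2 fold change of -0.034 ± 0.071 (95% interval -0.19 to 0.12). Choroid plexus markers, like Lrp5, were lower in HT: all 8 had a lower mean, 5 with an unadjusted p under 0.05. Their summed level was 8475 to 11537 in HT and 12263 to 16212 in WT, with none at 0. By library, HT 5 was lowest for both, with Lrp5 at 294 and a sum of 8475. WT 2 and WT 4, highest for Lrp5 at 426 and 425, had sums of 14358 and 16212. WT 5, lowest of the WT libraries for Lrp5 at 344, had a sum of 15212, and WT 1, at 404, had 12263. All 8 microglia and all 8 forebrain neuron markers also had a lower mean in HT, none at an unadjusted p under 0.05. Of the cerebellum markers, 8 of 10 were lower in HT. Higher in HT were 6 of 8 thalamus markers, 8 of 10 oligodendrocyte lineage markers and all 6 tested erythroid markers. Among these, only thalamus markers, 3 of them, had an unadjusted p under 0.05. The part of these lists in the Lrp5 difference was not tested, and in whole brain fewer cells of a type and less RNA per cell cannot be told apart. The summed level of 10 brain endothelial markers overlapped, at 7292 to 8712 in HT and 7487 to 8311 in WT, as did that of 11 meninges and fibroblast markers, at 14330 to 25514 and 16133 to 40527.

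**Figure D3:**
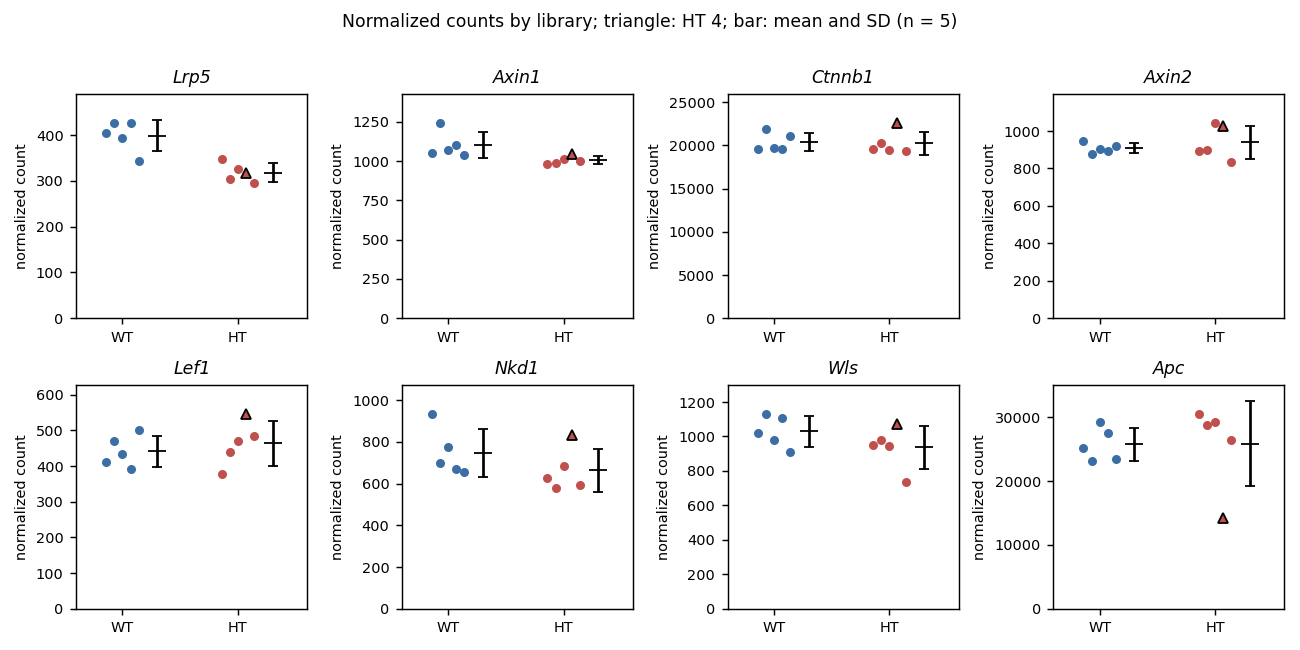
Normalized read counts of 8 members in every library, WT in blue and HT in red, with HT 4 as a triangle and bars for the mean and SD of 5 libraries; each y axis starts at 0. Lrp5 is at 294 to 349 in HT and 344 to 426 in WT, with HT 1 alone above the lowest WT library, and for Apc the HT bar is long, with HT 4 at 14306.

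Of the 10 Frizzled receptors, Fzd3 had the highest level, 37.6% ± 6.64 of the summed Frizzled level per kilobase in HT and 38.1% ± 1.5 in WT. Fzd3, which guides axon tracts through the planar polarity branch, had 5857, 5456, 5381, 3403 and 5281 in HT 1 to HT 5 and 5195, 5133, 5590.5, 5424 and 4901 in WT 1 to WT 5. The low value was HT 4, and without it the log2 fold change moved from -0.072 to 0.066 (exact p = 0.214). Fzd1 and Fzd9 followed in level, with 15.5% ± 1.37 and 12.6% ± 1.05 in WT.

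Fzd5, a receptor of the eye and ventral forebrain, was the lowest Frizzled. It had 103, 89.0, 70.5, 81.9 and 83.3 in HT 1 to HT 5 and 93.7, 125, 115, 113 and 84.0 in WT 1 to WT 5, with 3 WT libraries above every HT library and 2 within the HT range. Its log2 fold change was -0.30 ± 0.14 (exact p = 0.0556). Fzd2 was at 286, 234, 236, 346 and 216 in HT 1 to HT 5 and 288, 318, 325, 329.6 and 225 in WT 1 to WT 5. WT 5 was low and HT 4 high for this gene, and the fold change was -0.18 with all libraries (exact p = 0.310) and -0.28 without HT 4 (exact p = 0.0873). The other 7 Frizzled genes had log2 fold changes between -0.053 for Fzd4 and 0.069 for Fzd8 and no exact p under 0.381.

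Dishevelled genes, which relay the signal from Frizzled receptors, did not differ beyond the spread either. Dvl3 was the highest of the 3 per kilobase and had 3617, 3307, 3609, 2639 and 3469 in HT 1 to HT 5 and 3695, 3285, 3604, 3387 and 3539 in WT 1 to WT 5. Apart from HT 4 the ranges of both groups overlapped widely, and the log2 fold change was -0.082 with HT 4 and -0.00026 without it. Dvl1 and Dvl2 had fold changes of 0.032 and 0.0076, with intervals of -0.080 to 0.14 and -0.13 to 0.15.

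Beta-catenin messenger RNA did not differ beyond the spread of the libraries. The counts of Ctnnb1 (ENSMUSG00000006932, chr9:120929216-120960507, plus strand) were 19588, 20240.3, 19512, 22563 and 19357 in HT 1 to HT 5 and 19618, 21845, 19712, 19594 and 21039 in WT 1 to WT 5. HT 4 was the highest library and WT 2 the next, and the rest of both groups lay between 19357 and 21039. The log2 fold change was -0.0087 ± 0.053 with a 95% interval of -0.12 to 0.11 (exact p = 0.849), and -0.048 without HT 4. These are levels of messenger RNA, while the pathway acts on the stability of the protein, which the libraries do not measure.

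Axin1, the scaffold of the destruction complex, was the second member at an unadjusted p under 0.05. It lies on the chromosome that carries Arid1b (ENSMUSG00000024182, chr17:26138688-26195811, plus strand). Arid1b is at chr17:4994332-5347656, and a link of the Axin1 values to that position was not tested. Its counts were 984, 986, 1015, 1049 and 999.995 in HT 1 to HT 5 and 1055, 1242, 1069, 1103 and 1038 in WT 1 to WT 5. The HT libraries kept to a narrow band at the foot of the WT range, and only HT 4 rose above the lowest WT library. The means were 1007 ± 26.6 and 1101 ± 82.2, a log2 fold change of -0.13 ± 0.058 (limma, unadjusted p = 0.0475; exact p = 0.0159). Leaving out WT 2, the highest library, took the log2 fold change to -0.083, and leaving out HT 4 took it to -0.14 (exact p = 0.0159), where the groups no longer overlapped.

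Axin1 and Axin2 were at similar levels per kilobase, 279 ± 20.2 and 217 ± 15.2, and Axin1 was 54.8% ± 1.94 of their sum in HT and 57.7% ± 2.35 in WT. Apc, which holds the complex together, had 30566, 28769, 29324, 14306 and 26456 in HT 1 to HT 5 and 25251, 23165, 29241, 27576 and 23547 in WT 1 to WT 5. HT 4 was far below the other 9 libraries. The log2 fold change was -0.037 ± 0.18 with it and 0.16 without it (exact p = 0.0952), and Apc2 and Gsk3b did the same, going from -0.045 to 0.10 and from -0.012 to 0.096. The kinases Gsk3a, Csnk1a1, Csnk1d and Csnk1e were among the steadiest members, with log2 fold changes from -0.032 for Csnk1d to 0.023 for Gsk3a and intervals that all lay between -0.12 and 0.13. Over the 58 members the spread within groups was somewhat below that of a typical gene, with a median percentile of 40.7 among all genes, and 37 of the 58 lay under the 50th. Genes were not matched for level in this ranking, and the low ligands Wnt8b and Wnt11 were at percentiles 97.6 and 95.4. The part of level in the lower spread was not tested.

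Tcf7l2 made up 80.5% ± 0.80 of the summed level of the 4 Tcf and Lef factors per kilobase in HT and 79.9% ± 1.45 in WT. Its counts were 4128, 4475, 4269.7, 4989.6 and 4382 in HT 1 to HT 5 and 4316, 4165, 3889, 4343 and 4445 in WT 1 to WT 5. The highest library was HT 4 and the lowest WT 3, the groups overlapped, and the log2 fold change was 0.071 ± 0.058 (exact p = 0.294). Thalamus markers, a list without Tcf7l2, summed to 13048 to 14346 in HT and 12689 to 12974 in WT, with 6 of 8 higher in HT, 3 markers at an unadjusted p under 0.05 and none at 0. Their part in the Tcf7l2 values was not tested.

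The beta-catenin coactivators Bcl9, Bcl9l, Pygo1 and Pygo2 had log2 fold changes from -0.096 for Bcl9l to 0.047 for Bcl9. Bcl9, which bridges beta-catenin to Pygo proteins, had 4081, 3454, 3898, 2321 and 3808 in HT 1 to HT 5 and 3592, 3085, 3300.3, 3522 and 3203 in WT 1 to WT 5. HT 4 was the lowest library, and 3 of the other 4 HT libraries were above every WT library. The fold change was 0.047 ± 0.13 (exact p = 0.833) with HT 4 and 0.19 without it (exact p = 0.0397, adjusted p = 0.446).

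The Groucho corepressors, which keep Tcf targets silent, overlapped between the groups. Tle4 was the highest of the 4, at 2179 to 2631 in the HT libraries and 2342 to 2653 in the WT libraries, with a log2 fold change of -0.0021. Tle3 had 2430.5, 2475, 2444, 2236 and 2478 in HT 1 to HT 5 and 2631, 2525, 2612, 2639 and 2394 in WT 1 to WT 5. For Tle3, 4 WT libraries lay above every HT library and WT 5 lay among them, HT 4 was lowest, and the fold change was -0.086 ± 0.049 (exact p = 0.0635). Tle1 and Tle2 stood at -0.023 and -0.0047.

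Genes that the pathway itself switches on give a transcriptional readout, and none of the 7 followed here differed beyond the spread. Axin2, the most widely used target, had 894, 897, 1041, 1026 and 836 in HT 1 to HT 5 and 947, 877, 905, 892 and 921 in WT 1 to WT 5. HT 3 and HT 4 were above the WT range and HT 5 below it, for a log2 fold change of 0.043 ± 0.067 (95% interval -0.10 to 0.19, exact p = 0.484). Lef1 had 377, 439.6, 469, 546 and 484 in HT 1 to HT 5 and 411, 471, 433, 391 and 499.7 in WT 1 to WT 5. The spread was wide in both groups for Lef1, and the fold change was 0.065 ± 0.10 (exact p = 0.563), or 0.0034 without HT 4.

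Tcf7 was at 185, 203, 183, 204 and 185 in HT 1 to HT 5 and 205, 190.0, 219, 215 and 170.1 in WT 1 to WT 5, with a log2 fold change of -0.054 ± 0.094. Nkd1, a dishevelled-binding inhibitor that the pathway induces, had 625, 581, 684, 831 and 595 in HT 1 to HT 5 and 934, 698, 774, 669.6 and 654 in WT 1 to WT 5. WT 1 was highest and HT 4 next, and 3 of the other 4 HT libraries were under the WT range. The fold change of Nkd1 was -0.17 ± 0.11 (exact p = 0.238), -0.25 without HT 4 (exact p = 0.0635) and -0.085 without WT 1. Nkd2, its relative, had 721, 766, 760.3, 711 and 807 in HT 1 to HT 5 and 771, 665, 761, 739 and 829 in WT 1 to WT 5 and a fold change of 0.0027, with an interval of -0.14 to 0.15.

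Rnf43 and Znrf3 are membrane ligases that remove Frizzled receptors. Rnf43 was low, at 57.4, 44.1, 43.2, 49.8 and 43.3 in HT 1 to HT 5 and 50.9, 69.6, 75.3, 47.0 and 30.1 in WT 1 to WT 5. The WT libraries spread more than the HT libraries, from 30.1 to 75.3, and the log2 fold change of -0.13 ± 0.23 (exact p = 0.627) has an interval of -0.63 to 0.36. Znrf3 had 619, 527, 506, 444 and 536 in HT 1 to HT 5 and 535, 524, 620.3, 578 and 439 in WT 1 to WT 5, with both groups over the same range and a fold change of -0.033 ± 0.10. The 7 targets thus had log2 fold changes from -0.17 to 0.065, 3 positive and 4 negative, and the sign of Nkd2 turned when libraries were scaled to equal totals.

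**Figure D4:**
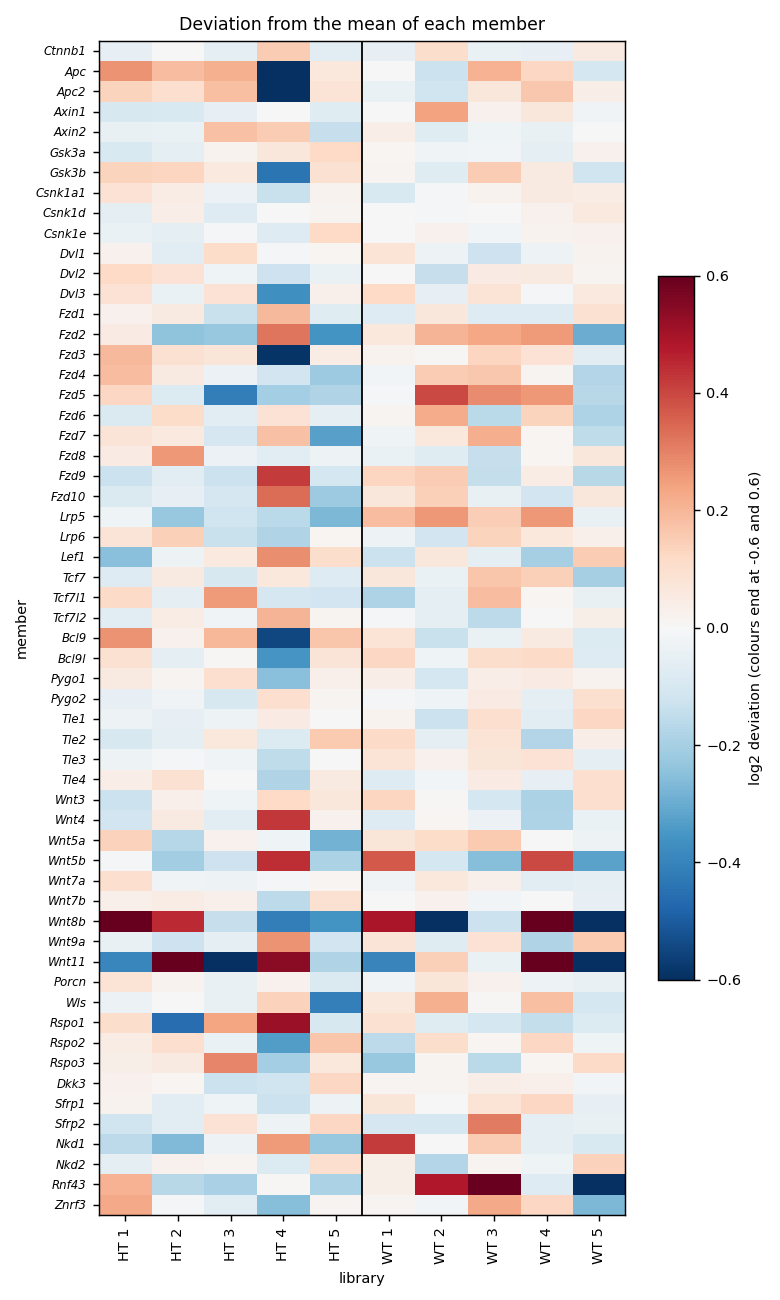
Heat map of the log2 deviation of each tested member from its mean over 10 libraries, members in rows and libraries in columns, blue for below and red for above, with colors ending at -0.6 and 0.6. The column of HT 4 is blue for Apc, Apc2, Fzd3 and Bcl9 and red for Wnt11, Rspo1, Wnt5b, Wnt4 and Fzd9, the rows of the low ligands Wnt8b and Wnt11 hold strong colors in both groups, and the row of Lrp5 is blue in HT and mostly red in WT.

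HT 4 lay outside the range of the other 9 libraries for 28 of 58 members, 16 at the low end and 12 at the high end, close to the 52.2% over all genes. Its deviation went with transcript length. In the 29 members with the shorter transcripts (1834 to 4016 bases) the median deviation of HT 4 was 0.064 on the log2 scale, with 13 negative, and in the 29 with the longer transcripts (4081 to 12811 bases) it was -0.13, with 21 negative. The lowest was Apc, at -0.82, and the highest Wnt11, at 0.54. Lrp5, with a transcript of 8893 bases, deviated by -0.16 in HT 4. The removal of a length and GC trend from each library gave a log2 fold change of -0.29 for Lrp5 and -0.12 for Axin1.

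**Figure D5:**
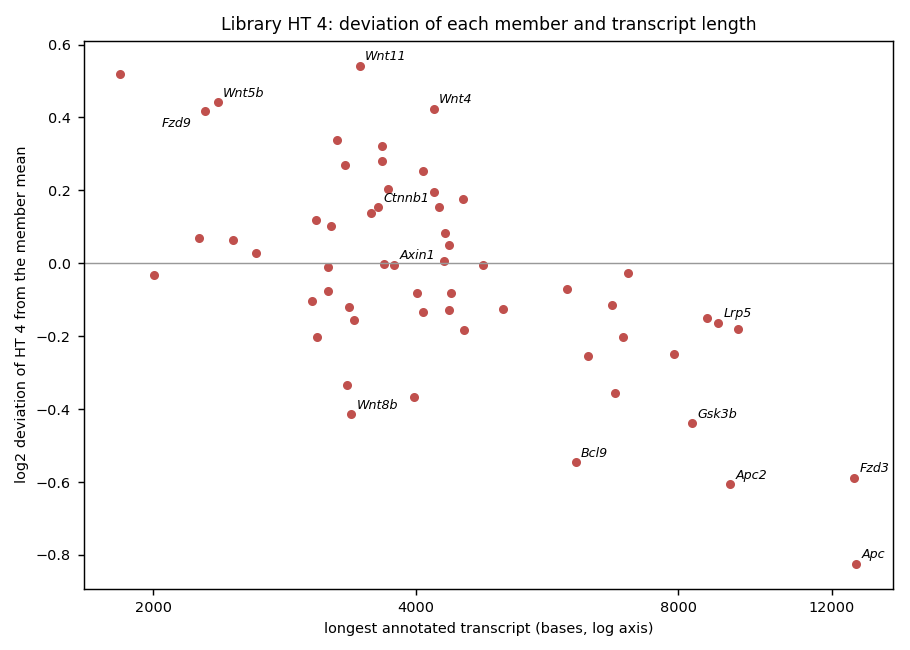
Log2 deviation of library HT 4 from the mean of each tested member (y axis) against the length of its longest annotated transcript in bases (x axis, log scale), 1 point per member. Members with long transcripts such as Apc, Fzd3 and Apc2 lie far below 0, and each of the points at or above the 0.20 of Tcf7l2 has a transcript no longer than the 4194 bases of Wnt4.

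A list of 101 other genes of the pathway was followed as well. Of these, 94 were in the table, 93 were tested, 0 passed after adjustment and 8 (8.60%) had an unadjusted p under 0.05, against the 3.41% of all genes. Without HT 4, 12 (12.9%) did, against 8.40% of all genes. The median log2 fold change of the 93 was -0.013 with HT 4 and 0.010 without it. Groups did not overlap for 2 of the 93, Wnt16 and Frat1, against 0.629% of all genes. Frat1, named after its values were seen, had a log2 fold change of 0.14 (exact p = 0.00794). Its unadjusted p in limma was 0.0711, so it is not among the 8. The largest fold change was that of Wnt16, a ligand at a very low level. It was at 9.05 to 21.7 in the HT libraries and 5.12 to 7.89 in the WT libraries. The log2 fold change was 1.05 ± 0.30 (exact p = 0.00794), on a scale of log2(value + 1) that understates changes of low genes. The mean of Wnt16, 10.2, passed the minimum of 10 only through the HT libraries, which averaged 14.2 against 6.16 in WT. The filter thus favored a higher level in HT, and neither its fold change nor its lack of overlap is read as a result. The ligand Wnt2, at 10.4 to 21.7 in the HT libraries and 15.5 to 34.3 in the WT libraries, went the other way (-0.66 ± 0.29, exact p = 0.0635).

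Of the other 6, 5 were lower in HT. The receptor Ror1, which binds Wnt5a, was at 65.9 ± 12.1 in HT and 84.2 ± 5.88 in WT (SD, n = 5), a log2 fold change of -0.36 (exact p = 0.0317). Adgra2, the vascular receptor for Wnt7 signals, was at -0.22 (exact p = 0.0476), the planar polarity gene Vangl1 at -0.28 (exact p = 0.0556), the Notch ligand and Wnt target Dll1 at -0.27 (exact p = 0.0476) and the corepressor subunit Tbl1xr1 at -0.28 (exact p = 0.0873). Tpbg, a membrane antagonist, was higher in HT, at 0.20 (exact p = 0.0476). Each of these 6 had overlapping groups. Of the 13 other transcriptional targets tested, which include Ccnd1, Myc and Sp5, 7 were higher and 6 lower in HT (median log2 fold change 0.00076), and without HT 4 these counts were 5 and 8, with a median of -0.061.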

How the data were processed

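The authors quantified messenger RNA libraries with Salmon 1.1.0 on the mouse genome GRCm38 and normalized gene values with DESeq2 1.30.1. The annotation release is not given in the sources used here. The deposited values, a signal per gene of normalized counts that need not be whole, were used as they are. Whole reads could not be recovered from them, so read depth is unknown and no counting intervals are given.

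Of 18444 genes, the 17020 averaging 10 or more normalized counts across the libraries were tested on log2(value + 1) with limma 3.58.1 (R 4.3.3; trend, robust), HT against WT with no covariate, two-sided, Benjamini-Hochberg adjusted with a threshold of 0.05 over all genes tested. A fold change on this scale understates changes of low genes. Exact permutation tests ran over all 252 assignments of libraries. The script was tested on simulated data. Symbols, positions and transcript lengths came from GENCODE M21, and promoter windows from RefSeq.

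Groups came from the labels. Each library was 1 mouse. Members and lists were chosen with earlier results of these data known. Values in every library are given for Ctnnb1, members with an unadjusted p under 0.05, the member with the highest level per kilobase or the smallest p in each role, and 7 feedback targets. For Tle4, Porcn, Rspo2 and Dkk3, each highest per kilobase in its role, only the ranges are given. Fzd2, Fzd5, Apc, Bcl9 and Dkk1 were added after values were seen. Alternatives were a pseudocount of 10, no filter, a mean of at least 100, equal totals, removal of a length and GC trend, sample weights, a replicate block and leaving out each library. Replicate numbers were not taken as pairs in the main fit.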

Additional observations from a re-analysis of the deposited data

Results flagged for a closer look

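In each group of 5 libraries, the gap of the highest or lowest library to its neighbor was divided by the range of the group. It passed the critical value for 16 of the 118 groups checked (59 members in 2 groups), and about 5.9 would by chance, 1 in 20. HT 4 was the library in 13 of the 16. The share of all genes that passes the same check is not given here, so no excess among the members can be read from the count. HT 4 lay outside the range of the other 9 libraries for 52.2% of all 17020 genes.

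HT 4 was the lowest HT library for 7 members. The ratios of gap to range were 0.747 for Apc, 0.845 for Apc2, 0.845 for Gsk3b, 0.765 for Fzd3, 0.732 for Pygo1, 0.805 for Tle3 and 0.738 for Wnt7b. Gsk3b, the kinase that phosphorylates beta-catenin, was at 7971 in HT 4 and 11244 to 11843 in the other 4 HT libraries, and Apc2 was at 9485 and at 15285 to 16347.

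HT 4 was the highest HT library for 6 members, with ratios of 0.725 for Ctnnb1, 0.902 for Fzd9, 0.738 for Fzd10, 0.725 for Wnt4, 0.736 for Wnt5b and 0.819 for Wnt9a. Fzd9, a Frizzled of the hippocampus, was at 415 in HT 4 and 284 to 297 in the other HT libraries. Wnt4 was at 663 and at 456 to 512.

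Among the WT libraries, WT 2 was lowest for Pygo1 (0.801), at 2647 against 2891 to 2952. WT 3 was highest for the antagonists Sfrp2 (0.865), at 433 against 324 to 338, and Dkk1 (0.888), at 19.0 against 4.00 to 5.68.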

How the results depend on the processing

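The count of members past adjustment was 0 under each alternative run, and all 58 members kept an adjusted p above the threshold. Over all genes the count was 0, with 2 after removal of the length and GC trend (Arid1b and Dynlt1b) and 2 with sample weights (Arid1b and Adamtsl3), and leaving out 1 library gave 0 to 2, the 2 (Arid1b and Adamtsl3) without HT 4. Unadjusted, the members under 0.05 numbered 2, against 1 with equal totals, 6 with sample weights and 1 to 7 on leaving out a library, with the 7 without HT 4, and Lrp5 was the 1 left with equal totals. Leaving out HT 2, HT 3, HT 5, WT 2, WT 3 or WT 4 gave 1, and WT 5 gave 4. All genes under 0.05 numbered 580, and 1280 with sample weights, with 447 (without WT 3) to 1429 (without HT 4) on leaving out a library. The other pathway genes numbered 8, and 5 at a mean of at least 100, 13 with sample weights and 5 (without HT 3, HT 5 or WT 3) to 13 (without HT 1) on leaving out a library. The replicate block gave 1 member, Lrp5, no member past adjustment and 558 genes under 0.05. Deviations of same-numbered libraries correlated at 0.091, 0.084, 0.082, -0.10 and 0.093. Differently numbered libraries were not compared in this way, so these values cannot decide whether a shared number means a shared litter or processing.

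The sign of some log2 fold changes turned, including those of Rspo1 and Fzd3, which were 0.12 and -0.072 in the main fit. With equal totals Nkd2 was -0.0039. With the length and GC trend removed Ctnnb1 was 0.0051, Gsk3b 0.021, Csnk1a1 0.021, Fzd6 0.0082, Pygo1 0.022, Tle2 0.0045, Tle4 0.018 and Porcn 0.0043. With sample weights Apc was 0.11, Apc2 0.074, Gsk3b 0.063, Csnk1a1 0.022, Fzd3 0.029, Pygo1 0.026, Tle2 0.011, Tle4 0.046, Wnt11 -0.023, Rspo1 -0.0031, Rspo2 0.048 and Sfrp2 0.00038. On leaving out a library, 32 members turned: Ctnnb1 ranged from -0.048 to 0.017, Apc -0.11 to 0.16, Apc2 -0.095 to 0.10, Gsk3a -0.0042 to 0.049, Gsk3b -0.047 to 0.096, Csnk1a1 -0.031 to 0.025, Dvl2 -0.026 to 0.040, Fzd1 -0.016 to 0.067, Fzd3 -0.13 to 0.066, Fzd6 -0.058 to 0.045, Fzd7 -0.096 to 0.030, Fzd9 -0.11 to 0.034, Fzd10 -0.14 to 0.00027, Lrp6 -0.073 to 0.0066, Tcf7l1 -0.021 to 0.088, Bcl9 -0.014 to 0.19, Pygo1 -0.047 to 0.042, Pygo2 -0.045 to 0.0038, Tle1 -0.058 to 0.0053, Tle2 -0.049 to 0.024, Tle4 -0.025 to 0.043, Wnt3 -0.019 to 0.061, Wnt5b -0.15 to 0.061, Wnt7a -0.0024 to 0.038, Wnt7b -0.0056 to 0.056, Wnt9a -0.099 to 0.0077, Wnt11 -0.13 to 0.31, Porcn -0.022 to 0.020, Rspo2 -0.069 to 0.055, Sfrp2 -0.035 to 0.074, Nkd2 -0.041 to 0.038 and Znrf3 -0.10 to 0.026. The cause was not tested. Lrp5, Axin1 and the other 24 kept their sign in each of those fits. Read depth is unknown, and the intervals of low genes such as Wnt8b, Wnt11 and Rnf43 are wide.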
